A study of Mus musculus with 10 samples.

Results

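The genes described here are *Cd14* and the 9 Toll-like receptors measured in these tumors, *Tlr1* to *Tlr9*. They were taken by gene symbol, and all 10 were found among the 770 gene probes of a NanoString panel of immune genes (PanCancer Immune Profiling, mouse), an assay that counts single RNA molecules with bar-coded probes and no amplification. RNA came from subcutaneous tumors of YUMMER1.7 cells, a mouse melanoma line with mutant *Braf*, collected at day 11 after injection. There were 5 tumors from WT mice (numbered 2, 3, 4, 5 and 6) and 5 from Siah2-/- mice (numbered 1, 2, 3, 5 and 6), called WT and Siah2-/- tumors below. Siah2 is a ubiquitin ligase, and its gene was deleted in the whole Siah2-/- host, while the injected melanoma cells of both groups came from the same line and were not deleted for it. All tumors thus trace to a single cell line. The mice were males of a C57BL/6 background, 5 to 10 weeks old. The sources differ on these samples. Line, genotype and day are given here as in the sample labels, while the series description names Yumm1.5 cells, Rnf5-/- mice and day 10, a day also found in a figure legend for this assay. The panel had no probe for *Siah2*, so the genotype of each tumor's host rests on its label.

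Toll-like receptors are membrane proteins of the innate immune system that bind molecules of microbes or of damaged cells. TLR1, TLR2, TLR4, TLR5 and TLR6 sit on the cell surface and bind lipids or proteins, whereas TLR3, TLR7, TLR8 and TLR9 sit in endosomes and bind nucleic acids. Most signal through the adaptor MyD88 and TLR3 through TRIF, and both routes end in NF-kB, AP-1 and interferon regulatory factors, which switch on cytokines, chemokines and costimulatory molecules. CD14 has no signalling part of its own and hands lipopolysaccharide to TLR4. In tumors these genes are expressed mainly by macrophages, monocytes and dendritic cells.

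Values are normalized counts, scaled in each tumor to the same geometric mean of 20 reference genes. Before that scaling, the counts over the 770 gene probes summed to between 382860 and 581635 per tumor, and the scaling factor ranged from 0.918 to 1.32 for WT and from 1.03 to 1.6 for Siah2-/- tumors. All 10 genes lay above the highest negative control probe in 10 of 10 tumors, although *Tlr5* came close to it in some. As for cell types, genes were called by the test given below, which called 31.3% of all 770 probes higher and 9.74% lower. Of 8 leukocyte genes 7 were higher in Siah2-/- tumors and 0 lower, and their summed level was 4643 to 5710 normalized counts in WT tumors and 6860 to 10324 in Siah2-/- tumors. Of 12 macrophage and monocyte genes 4 were higher (*Cd68*, *Msr1*, *Fcgr1* and *Itgam*) and 1 lower (*Mrc1*), with overlapping sums of 30159 to 38720 and 32638 to 55256. These sums mostly followed *Lyz2* (means 14214 and 16060), *C1qa* (5566 and 6513) and *C1qb* (4647 and 5789), none of them called. Of 8 dendritic cell genes 3 were higher (*Itgax*, *Irf8* and *H2-Ab1*) and 0 lower, and *Lamp3* was under 5 normalized counts in all tumors. Of the 5 not called, *Flt3* (log2 fold change -0.53) and *Ccr7* (-0.65) were below 0, and *Xcr1* (0.071), *Cd207* (0.81) and *Lamp3* (0.12) above it. The sums were 6742 to 8900 in WT tumors and 9573 to 17542 in Siah2-/- tumors. They mostly followed *H2-Ab1*, whose means were 7284 and 11161. Of 5 fibroblast genes 1 was higher (*Thy1*) and 4 lower (*Col1a1*, *Col3a1*, *Fap* and *Pdgfrb*), with sums of 16865 to 21688 and 10963 to 13076. The part of dendritic cells and fibroblasts in the results was not tested. Of the 3 melanoma and neural crest genes on the panel, *S100b* and *Cspg4* were lower, and the sum over the 3 was 438 to 594 in WT tumors and 224 to 405 in Siah2-/- tumors. In RNA of a whole tumor, more cells of a type and more RNA per cell cannot be told apart.

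Of the 10 genes, 4 rose in Siah2-/- tumors (*Tlr8*, *Cd14*, *Tlr6* and *Tlr4*) and 0 fell. The test was limma's on log2(value + 1), with p adjusted over all 770 probes and called at an adjusted p under 0.05. On the same rule 31.3% of all probes were called higher and 9.74% lower, or 41.0% in either direction, so the share of 4 of 10 was near the background. The median log2 fold change over the 10 genes was 0.44, against 0.24 over all probes. In 3 of 10 genes (*Tlr4*, *Tlr8* and *Cd14*) every Siah2-/- tumor lay above every WT tumor, against 24.5% of all probes. These shares depend on the scaling. With each tumor scaled to its median probe, the median over all probes moved from 0.24 to -0.0074, and the 241 probes called higher and 75 lower became 163 higher and 152 lower. Of the 10 genes, *Tlr8* and *Cd14* were then called higher and *Tlr1* lower. With scaling to the positive control probes 95 of the 770 probes and 0 of the 10 genes were called, with *Tlr8* at 0.86 (limma adjusted p = 0.0808) and *Cd14* at 0.56 (limma adjusted p = 0.321).

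**Figure D1:**
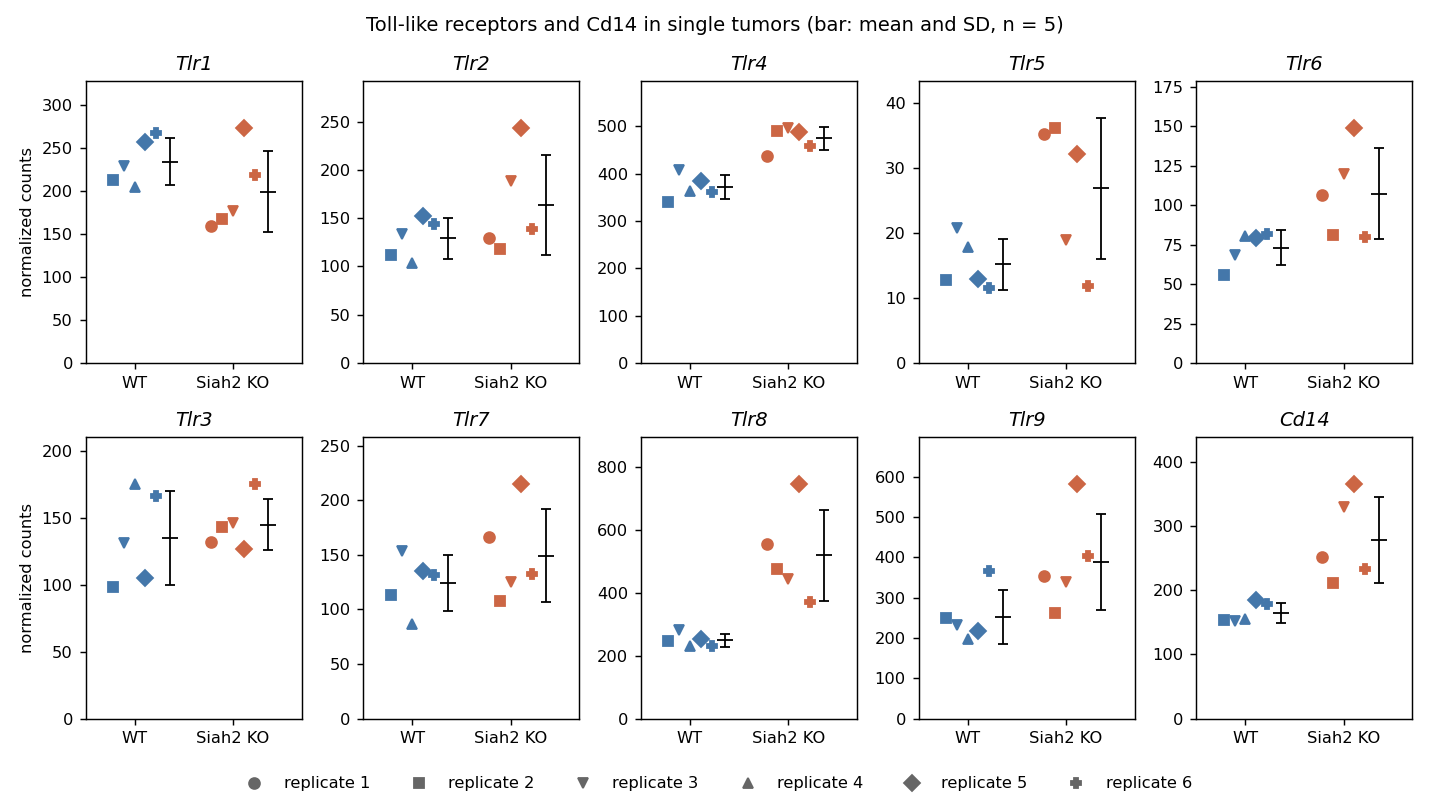
Normalized counts (y axis, linear, from 0) of each gene in the 5 WT tumors (blue) and the 5 Siah2-/- tumors (orange, labelled Siah2 KO), 1 point per tumor with its shape giving the replicate number, and the mean with SD in black. The groups do not overlap for *Tlr4*, *Tlr8* and *Cd14*, and Siah2-/- tumor 5 is the highest of the 10 tumors for 7 of the 10 genes.

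Among the surface receptors, TLR2 works as a pair with either TLR1 or TLR6. The TLR2 and TLR1 pair binds lipopeptides with an additional acyl chain, and the TLR2 and TLR6 pair those without it. *Tlr1* was at 213, 228, 205, 257 and 267 normalized counts in WT tumors 2 to 6, and at 159.5, 167, 177, 273 and 218 in Siah2-/- tumors 1, 2, 3, 5 and 6. Thus 3 Siah2-/- tumors lay below all WT tumors, but tumor 5 was the highest of all. The means were 234 ± 27.1 and 199 ± 47.1 (SD, n = 5), and the log2 fold change of -0.26 (SE 0.16) missed the threshold (limma adjusted p = 0.225, exact permutation p = 0.159). It passed when Siah2-/- tumor 5 was left out, at -0.38 (limma adjusted p = 0.0423), and when tumors were scaled to the median probe, at -0.52 (limma adjusted p = 0.0121).

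*Tlr2*, the shared partner, was at 112, 134, 103, 153 and 144.5 normalized counts in WT tumors and at 129.6, 118, 188, 243 and 139 in Siah2-/- tumors. The groups overlapped, with Siah2-/- tumors 3 and 5 above the WT range. The log2 fold change was 0.30 (SE 0.21, 95% interval -0.16 to 0.76), and limma's adjusted p was 0.275.

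*Tlr6* was at 55.9, 68.6, 80.2, 78.9 and 81.8 normalized counts in WT tumors, and at 106, 80.9, 119.95, 149 and 79.9 in Siah2-/- tumors. Siah2-/- tumors 1, 3 and 5 were above all WT tumors, while tumors 2 and 6 were level with the upper WT tumors. The means were 73.1 ± 10.9 and 107 ± 28.9 (SD, n = 5), a 1.43-fold difference (log2 0.52, SE 0.19, limma adjusted p = 0.0489, exact permutation p = 0.0397). The call stood at the threshold. It was lost in 9 of 13 other settings and with any of 8 of the 10 tumors left out, among them Siah2-/- tumor 5, without which the log2 fold change was 0.39 (limma adjusted p = 0.0941).

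*Tlr1* and *Tlr6* are neighbours on mouse chromosome 5, and no other annotated gene starts in the 19491 bases between them. In GRCm38.p6 the RefSeq gene *Tlr1* spans 64924680 to 64933600 and *Tlr6* 64953092 to 64970942. As 1 rose in the test and the other did not, the 150 bases before a RefSeq start of each are shown, 5′ to 3′ on the minus strand, from chr5:64933559-64933708 (*Tlr1*) and chr5:64959167-64959316 (*Tlr6*). Each gene has 1 further start among the promoter windows that is not shown. Both *Tlr6* starts, at 64959166 and 64960048, lie inside the *Tlr6* span given above, not at its 5′ end, 64970942. The *Tlr6* stretch shown is thus internal to the annotated gene. The *Tlr1* start used, 64933558, also lies inside its gene span, which ends at 64933600. The part of the *Tlr1* stretch nearest the start, which holds the letters AGGAAGT marked below, is thus internal to *Tlr1*.
Tlr1: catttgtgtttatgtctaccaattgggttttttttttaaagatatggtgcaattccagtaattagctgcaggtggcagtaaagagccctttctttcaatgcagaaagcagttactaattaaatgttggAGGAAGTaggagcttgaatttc
Tlr6: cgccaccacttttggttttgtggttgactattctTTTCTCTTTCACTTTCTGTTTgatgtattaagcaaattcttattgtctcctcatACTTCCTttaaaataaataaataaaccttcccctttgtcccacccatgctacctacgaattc
Capitals mark matches, on either strand, to the letters AGGAAGT of the myeloid factor PU.1 and AAANNGAAA of interferon regulatory factors. Both stretches held 1 PU.1 match, 22 bases before the start in *Tlr1* and 62 before it in *Tlr6*. The *Tlr6* stretch also held 3 interferon regulatory factor matches that overlap one another, 116, 110 and 104 bases before the start, and the *Tlr1* stretch held none. Of 32851 RefSeq promoter windows of 300 bases, 9.35% held the PU.1 letters and 10.6% those of interferon regulatory factors. Such a match describes the letters and is not a measured binding site.

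TLR4 binds lipopolysaccharide with its co-receptor MD-2, and CD14 delivers the ligand to them. *Tlr4* was at 340.4, 408, 363, 384 and 361 normalized counts in WT tumors, and at 438, 489, 496, 489 and 459 in Siah2-/- tumors. The groups did not overlap and each was tight. Means of 371 ± 25.5 and 474 ± 24.8 (SD, n = 5) gave a 1.28-fold difference (log2 0.35, SE 0.081, limma adjusted p = 0.0058, exact permutation p = 0.00794, the smallest possible for 5 against 5 tumors). The median over all probes was 0.24 on the same scale. With median scaling the log2 fold change of *Tlr4* was 0.088 (limma adjusted p = 0.449) and with quantile normalization 0.020 (limma adjusted p = 0.853).

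*Cd14* was at 154, 151, 155, 184 and 178 normalized counts in WT tumors, and at 251.6, 211, 329.6, 366 and 232 in Siah2-/- tumors. All Siah2-/- tumors were above all WT tumors, and they spread more widely. Means of 165 ± 15.5 and 278 ± 66.6 (SD, n = 5) gave a 1.65-fold difference (log2 0.73, SE 0.16, limma adjusted p = 0.00481, exact permutation p = 0.00794). *Cd14* kept its call with median scaling, at 0.46 (limma adjusted p = 0.00695), and with quantile normalization, at 0.43 (limma adjusted p = 0.00964). Neutrophils also carry CD14. Of 8 neutrophil genes 2 (*Csf3r* and *Trem1*) were higher and 0 were lower, against 31.3% and 9.74% of all probes. The summed level was 239.6 to 283 normalized counts in WT tumors and 269 to 659 in Siah2-/- tumors. The granule genes *Ltf* and *Camp* were under 5 normalized counts in all tumors, and *Elane* and *Mpo* were at most 5.71 and 7.57. With *Cxcr2*, 5 of the 8 neutrophil genes had a mean under 20, so the sum rests mostly on *S100a8*, *Csf3r* and *Trem1*. The part of neutrophils in the *Cd14* difference was not tested.

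*Tlr5*, which encodes the receptor for flagellin, had the lowest values of the family, at 12.8, 20.8, 17.8, 12.9 and 11.5 normalized counts in WT tumors and 35.3, 36.1, 18.9, 32.1 and 11.9 in Siah2-/- tumors. Siah2-/- tumors 1, 2 and 5 stood apart from the rest, and tumor 6 was among the lowest of all. The log2 fold change of 0.71 had a wide error (SE 0.31) and missed the threshold (limma adjusted p = 0.0899, exact permutation p = 0.0952). Without Siah2-/- tumor 6 it was 0.96 (limma adjusted p = 0.00936).

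Among the endosomal receptors, TLR3 binds double-stranded RNA. *Tlr3* was at 98.0, 131, 176, 105 and 167 normalized counts in WT tumors and at 132, 143, 146, 127 and 176 in Siah2-/- tumors. The groups overlapped almost fully, with a log2 fold change of 0.13 (SE 0.18, 95% interval -0.27 to 0.52, limma adjusted p = 0.592), and its sign turned with median scaling (-0.14) and quantile normalization (-0.21). Siah2-/- tumor 5, the highest for most of the family, was the lowest Siah2-/- tumor for *Tlr3*.

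TLR7 and TLR8 both bind single-stranded RNA, and the mouse TLR8 is known to respond weakly to ligands that activate the human receptor. *Tlr7* was at 113, 153, 86.6, 136 and 132 normalized counts in WT tumors and at 166, 108, 125, 215 and 132 in Siah2-/- tumors. The groups overlapped, and the log2 fold change was 0.25 (SE 0.21, 95% interval -0.22 to 0.71, limma adjusted p = 0.368), with a turned sign under median scaling (-0.016) and quantile normalization (-0.047).

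*Tlr8* was at 247, 281, 231, 254 and 231 normalized counts in WT tumors, and at 556, 478, 446, 749 and 370.4 in Siah2-/- tumors. The lowest Siah2-/- tumor was well above the highest WT tumor. Means of 249 ± 20.6 and 519.7 ± 144 (SD, n = 5) gave a 2.03-fold difference, the largest of the 10 genes (log2 1.02, SE 0.17, limma adjusted p = 0.00133, exact permutation p = 0.00794). It passed with median scaling, at 0.76 (limma adjusted p = 0.00256), with quantile normalization, at 0.70 (limma adjusted p = 0.00303), and with any single tumor left out, with log2 fold changes of 0.88 to 1.13.

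The genes *Tlr8* and *Tlr7* lie side by side on the X chromosome, *Tlr8* at 167241123 to 167264329 and *Tlr7* at 167303380 to 167330574 in GRCm38.p6, with 39050 bases and no other gene start between them. The 150 bases before the RefSeq start of *Tlr8* (chrX:167264330-167264479, 5′ to 3′ on the minus strand) are shown because this gene differed most, together with those of *Tlr3* (chr8:45410381-45410530, minus strand), the endosomal receptor that differed least. The *Tlr3* start used, 45410380, lies inside the RefSeq span of *Tlr3*, 45395665 to 45411075. The *Tlr3* stretch shown is thus internal to the annotated gene, whereas the *Tlr8* stretch lies outside the *Tlr8* span.
Tlr8: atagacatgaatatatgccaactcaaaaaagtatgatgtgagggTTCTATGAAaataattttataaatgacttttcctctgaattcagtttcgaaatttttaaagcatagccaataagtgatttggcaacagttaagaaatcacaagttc
Tlr3: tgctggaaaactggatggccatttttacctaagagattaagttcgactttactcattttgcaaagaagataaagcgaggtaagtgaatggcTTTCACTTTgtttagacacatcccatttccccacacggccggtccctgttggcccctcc
Capitals mark 1 match in *Tlr8* to the STAT letters TTCNNNGAA, 106 bases before the start, which 8.30% of the promoter windows held, and 1 interferon regulatory factor match in *Tlr3*, 59 bases before the start. The *Tlr8* stretch held no match to the PU.1 or interferon regulatory factor letters. The STAT letters were otherwise found in the windows of *Tlr1* and *Tlr6*, at the starts not shown. Letters of NF-kB (GGGNNTTCC, in 5.82% of the windows) were found for *Tlr2*, and those of AP-1 (TGANTCA, in 7.81%) for *Tlr9*. RefSeq windows were matched for 7 of the 10 genes.

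*Tlr9*, which encodes the receptor for unmethylated CpG DNA, was at 249, 231, 197, 217 and 365 normalized counts in WT tumors and at 355, 262, 339.7, 583 and 403 in Siah2-/- tumors. WT tumor 6 reached into the Siah2-/- range, and Siah2-/- tumor 2 lay close to the other WT tumors. The log2 fold change was 0.61 (SE 0.23) at a limma adjusted p of 0.0541 and an exact permutation p of 0.0397. It passed the threshold without WT tumor 6, at 0.75 (limma adjusted p = 0.0198), and without Siah2-/- tumor 2, at 0.74 (limma adjusted p = 0.0251). B cells are known for high *Tlr9*. The B cell genes *Ms4a1* and *Pax5* were under 5 normalized counts in all tumors.

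Since leukocyte genes as a group were higher in Siah2-/- tumors, each gene was also expressed relative to them, as its log2 value minus the median log2 value of 8 leukocyte genes in the same tumor. On this scale *Tlr8* stayed higher in Siah2-/- tumors, by 0.47 (SE 0.14, limma adjusted p = 0.0201), and *Tlr1* was lower, at -0.81 (SE 0.13, limma adjusted p = 0.000809). For both genes the groups did not overlap. Over all probes 10.1% were called higher and 34.0% lower on this scale. The other 8 genes were not called, with log2 differences from -0.43 for *Tlr3* to 0.17 for *Cd14*, and *Tlr4* at -0.20 (95% interval -0.51 to 0.11). The call for Tlr8 relative to leukocyte genes was lost without Siah2-/- tumor 1, at 0.41 (limma adjusted p = 0.0513).

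Relative to the median of the 12 macrophage and monocyte genes, 3 of the 10 genes were called. *Tlr8* was higher by 0.75 (SE 0.15, limma adjusted p = 0.00328) and *Cd14* by 0.46 (SE 0.13, limma adjusted p = 0.0195), and *Tlr1* was lower, at -0.53 (SE 0.14, limma adjusted p = 0.0147). Over all probes 18.7% were called higher and 15.8% lower. The *Tlr1* and *Tlr8* values did not overlap between groups, whereas those of *Cd14* did, and the call for Cd14 relative to macrophage genes was lost without WT tumor 3, at 0.41 (limma adjusted p = 0.0559), or without Siah2-/- tumor 3, at 0.42 (limma adjusted p = 0.0520). *Tlr4* (0.084), *Tlr2* (0.028) and *Tlr7* (-0.022) stood near 0 on this scale.

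**Figure D2:**
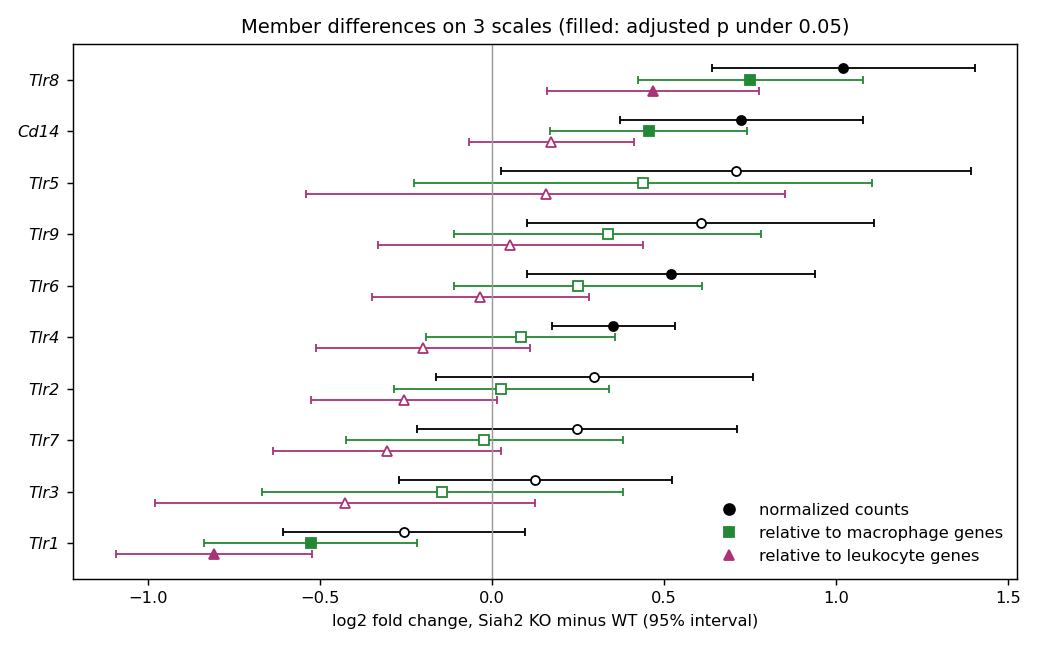
Log2 fold change of each gene, Siah2-/- minus WT (x axis), with its 95% interval, as normalized counts (black circles), relative to macrophage and monocyte genes (green squares) and relative to leukocyte genes (purple triangles), filled where limma's adjusted p is under 0.05. *Tlr8* is filled and right of 0 on all 3 scales, and *Tlr1* is filled and left of 0 on both relative scales.

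Receptors that share a complex or a compartment were then set against each other within each tumor, as the difference of their log2 values. Such a difference does not depend on the scaling of the tumor. Its size also carries the unequal efficiency of both probes, so that only the shift between groups is read. In 3 of 6 pairs the shift passed an exact two-sided permutation test adjusted over the 6 pairs.

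*Tlr1* minus *Tlr2* was 0.92, 0.77, 0.98, 0.75 and 0.88 in WT tumors and 0.30, 0.50, -0.089, 0.16 and 0.65 in Siah2-/- tumors, with every Siah2-/- tumor below every WT tumor. The shift was -0.55 (SE 0.14, exact permutation p = 0.00794, adjusted 0.0238). *Tlr6* minus *Tlr1* went the other way, from -1.91, -1.72, -1.34, -1.69 and -1.69 in WT tumors to -0.58, -1.04, -0.56, -0.87 and -1.44 in Siah2-/- tumors. Only Siah2-/- tumor 6 fell within the WT range, and the shift was 0.78 (SE 0.19, exact permutation p = 0.0159, adjusted 0.0317). *Tlr6* minus *Tlr2* shifted by 0.22 (SE 0.15, exact permutation p = 0.183, adjusted 0.183) and was not called.

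*Tlr8* minus *Tlr7* was 1.12, 0.87, 1.40, 0.90 and 0.80 in WT tumors and 1.74, 2.13, 1.83, 1.79 and 1.48 in Siah2-/- tumors. The groups did not overlap, and the shift was 0.77 (SE 0.15, exact permutation p = 0.00794, adjusted 0.0238). *Tlr9* minus *Tlr7* shifted by 0.36 (exact permutation p = 0.103, adjusted 0.124), and *Cd14* minus *Tlr4* by 0.37 (exact permutation p = 0.0476, adjusted 0.0714), and neither was called.

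**Figure D3:**
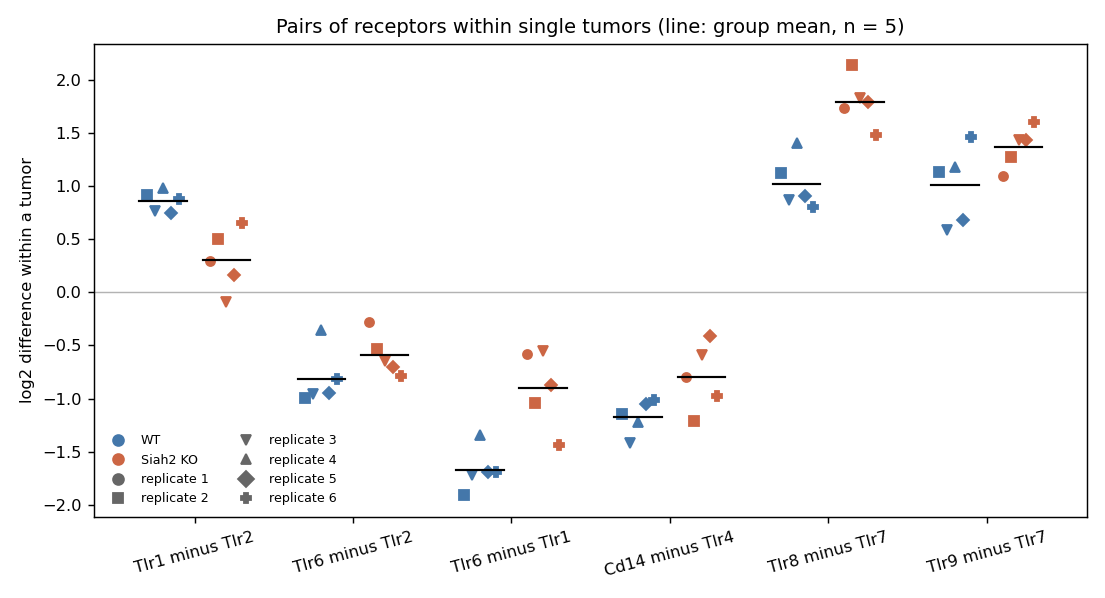
Difference of log2 values between the members of each pair in a single tumor (y axis), for WT tumors (blue) and Siah2-/- tumors (orange, labelled Siah2 KO), 1 point per tumor with its shape giving the replicate number and a black line at the group mean. The groups separate for *Tlr1* minus *Tlr2* (means 0.86 and 0.31) and for *Tlr8* minus *Tlr7* (means 1.02 and 1.79).

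The tumors of a group also varied together. Siah2-/- tumor 5 was the highest of the 10 tumors for 7 of the 10 genes, with *Tlr5*, *Tlr4* and *Tlr3* the exceptions. Its leukocyte median was 951 normalized counts, against 612 to 750.1 in the other Siah2-/- tumors and 409 to 542 in WT tumors, and its macrophage median was 2030, against 1331 to 1722 and 1144 to 1390. Their part in the values of this tumor was not tested. *Tlr4*, *Tlr8* and *Cd14* were still called without it.

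After each group's mean was taken out, 34 of the 45 pairs of genes correlated above 0 across the 10 tumors. The closest were *Tlr2* and *Cd14* (Pearson r = 0.92), *Tlr6* and *Cd14* (r = 0.87) and *Tlr1* and *Tlr9* (r = 0.80), and *Tlr3* and *Tlr8* were the farthest apart (r = -0.51). These values describe 10 tumors, and within each tumor all genes share its scaling and its leukocyte content. No test was made. Among the 592 other probes with a mean of at least 20, those closest to *Tlr3* were the interferon-stimulated genes *Rsad2* (r = 0.79), *Usp18* (r = 0.78) and *Ifit1* (r = 0.76). *Tlr7* was closest to *Dll4* (r = 0.92) and the complement genes *C1qa* (r = 0.92) and *C1qb* (r = 0.91), the last pair made by macrophages. *Tlr8* was closest to the T and NK cell genes *Cd247* (r = 0.95) and *Tigit* (r = 0.93) and to *Ifitm2* (r = 0.91), and *Cd14* to *Lcp1* (r = 0.95), *Slamf7* (r = 0.94) and *Eomes* (r = 0.94).

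For the remaining receptors the closest probes were *Clec4a2* (r = 0.97), *Rel* (r = 0.93) and *Il12b* (r = 0.90) for *Tlr1*, and *Tnfrsf14* (r = 0.98), *Ncf4* (r = 0.97) and *Abcg1* (r = 0.96) for *Tlr2*. *Tlr6* followed *Notch1* (r = 0.96), *Cxcl9* (r = 0.96) and *Irf5* (r = 0.96), and *Tlr9* followed *Rel* (r = 0.90), *Lyn* (r = 0.85) and *Klra2* (r = 0.84). *Tlr4* was closest to *Crebbp* (r = 0.88), *Tnfrsf1b* (r = 0.83) and *Bax* (r = 0.80), and *Tlr5* to *Cd160* (r = 0.86), *Mrc1* (r = 0.83) and *Rora* (r = 0.79).

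Downstream and beside the receptors, 67 further genes of the pathway were on the panel, and limma called 31 of them higher and 3 lower in Siah2-/- tumors. Over all 770 probes 31.3% were called higher and 9.74% lower, and the counts of each list are to be read against these shares. Those of the adaptors and kinases and of the inhibitors did not exceed them. Of 7 co-receptors and ligand handling genes, 3 rose and 1 fell, with a median log2 fold change of 0.33. *Ly96*, which encodes MD-2, the co-receptor of TLR4, rose from 196 ± 13.5 to 249 ± 31.0 normalized counts (SD, n = 5), without overlap (log2 0.33, limma adjusted p = 0.0263). Its call was lost in 5 of 13 other settings, among them median scaling, at 0.068 (limma adjusted p = 0.543), and quantile normalization, at 0.0057 (limma adjusted p = 0.952), and with any of 4 of the 10 tumors left out. *Cd36*, a scavenger receptor that can pass ligands to TLR2 and TLR6, rose by 1.59 on the log2 scale, and *Cd180*, a relative of TLR4 without signalling domain, by 1.13. *Hmgb1*, a nuclear protein that binds TLR4 when released, fell by 0.26, a call lost in 4 of 13 other settings and with any of 6 tumors left out, over values from -0.66 to -0.22.

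Of 16 adaptors and kinases, 4 rose, 1 fell and 11 were not called, with a median of 0.17. The adaptor genes themselves were not called, with *Myd88* at 0.15 (limma adjusted p = 0.213) and *Ticam1*, which encodes TRIF, at 0.17 (limma adjusted p = 0.511), and both turned sign with median scaling and quantile normalization. The kinase genes *Irak2* (0.82) and *Ikbke* (0.65) led the list, *Ikbkg* (0.35) and *Chuk* (0.25) were higher by less, and *Tab1* fell by 0.27. The *Ikbkg* call was near the threshold (limma adjusted p = 0.0417) and was not followed singly through the other settings. Its value was 314 normalized counts in Siah2-/- tumor 3 and 210 to 247 in the other Siah2-/- tumors. The *Tab1* call was lost in 4 of 13 other settings and with any of 8 tumors left out, over values from -0.60 to -0.22, and the *Chuk* call with any of 8 tumors left out. Of 7 inhibitors, 2 rose, *Socs1* by 0.98 and *Tnfaip3*, which encodes A20, by 0.89, and *Irak3* was at 0.62 (limma adjusted p = 0.0506). Of 8 transcription factors, 4 rose and 0 fell. *Fos* rose by 1.78, *Irf7*, a factor downstream of TLR7 and TLR9, by 0.65, *Irf5* by 0.53 and *Jun* by 0.24, where *Jun* and *Chuk* turned sign with median scaling and quantile normalization. The *Irf5* call was lost with median scaling, at 0.26 (limma adjusted p = 0.121), with quantile normalization, at 0.14 (limma adjusted p = 0.390), and with any of 7 tumors left out, the *Irf7* call with quantile normalization, at 0.28 (limma adjusted p = 0.0658), and the *Jun* call with any of 8 tumors left out.

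Genes that the receptors are known to induce had the highest median of the 6 lists, 1.10, and 13 of 19 rose and 1 fell. *Nos2*, which encodes the inducible nitric oxide synthase, went from 11.4 ± 5.94 to 220.2 ± 125 normalized counts (SD, n = 5), a log2 fold change of 4.09, and the costimulatory gene *Cd80* rose by 0.43. *Cd80* lost its call with median scaling, at 0.16 (limma adjusted p = 0.148), and quantile normalization, at 0.059 (limma adjusted p = 0.548). *Cxcl2*, a neutrophil chemokine, was at 1 to 3.23 normalized counts in WT tumors, within the range of negative control probes, and at 7.77 to 49.2 in Siah2-/- tumors. It lay above the highest negative control probe in only 4 of 10 tumors, and Siah2-/- tumor 6, at 7.77, was not among them. With a floor of 20 the *Cxcl2* call was lost, at 0.37 (limma adjusted p = 0.280). *Il12b*, the p40 subunit of IL-12, fell by 0.86, a call lost in 4 of 13 other settings and kept with any single tumor left out. Siah2-/- tumor 5, at 48.4 normalized counts, lay within the *Il12b* range of WT tumors, 40.7 to 53.0. Of 10 sensors outside the family 5 rose and 0 fell, among them *Clec7a* (1.33), which encodes the beta-glucan receptor Dectin-1, *Nlrp3* (1.10), *Nod2* (1.02) and *Nod1* (0.66). These genes are also induced through other receptors and cytokines, whose part was not tested.

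**Figure D4:**
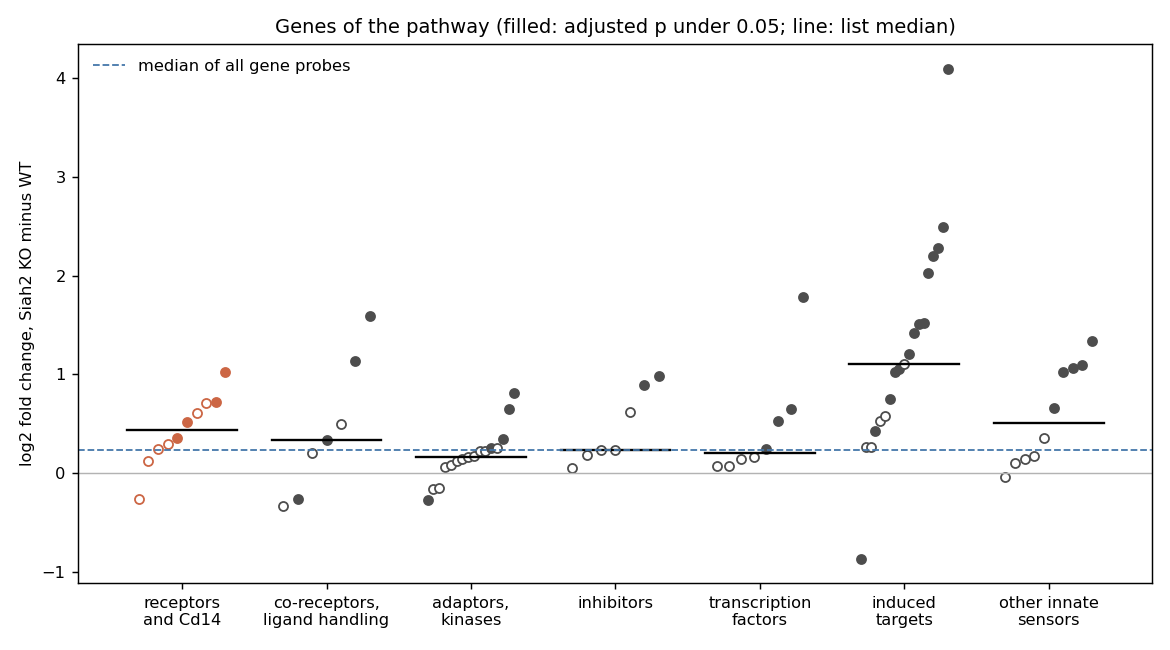
Log2 fold change, Siah2-/- minus WT (y axis), of the 10 receptor genes (orange) and of 67 further pathway genes in 6 lists (grey), 1 point per gene, filled where limma's adjusted p is under 0.05, with black lines at list medians and a dashed line at the median of all 770 probes (0.24). The list of induced targets has the highest median, 1.10, and the receptors lie between -0.26 and 1.02.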

How the data were processed

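RNA of 5 WT and 5 Siah2-/- tumors, grouped by the sample labels, was measured on the NanoString panel, and the sources name no batch or cartridge. For 784 probes the authors deposited a signal in normalized counts, made in nSolver by scaling to 20 reference genes. From the steps of the values, a background constant had been subtracted, values were floored at 1, and each tumor was multiplied by 1 factor. The depth before the factor limits the precision of low genes. Here log2(value + 1) of 770 gene probes was compared two-sided by limma (lmFit and eBayes, version 3.58.1 under R 4.3.3), with Benjamini-Hochberg adjustment over all probes, and single values by an exact permutation test over all divisions into 5 and 5 tumors. P-values measure the spread between tumors, which the labels list as separate samples. Named genes were all 10 members, the called genes with the 2 largest and 2 smallest log2 fold changes of each pathway list with 6 signalling partners, and the 3 probes closest to each member. *Ikbkg* and the marker genes named beside a count were added to these. The members and lists were chosen with earlier results of these data known. Results on some B cell genes are not reported here. The steps were tested on simulated data. Alternatives were median scaling, quantile normalization, positive control scaling, 10 reference genes, a filter or floor at 20, a pseudocount of 10, endogenous probes only, t-tests with equal (the methods' test) or unequal variances, an intensity trend, the replicate number as a block, and leaving out each tumor. Promoter sequences are from RefSeq (GRCm38.p6), and figures were made in Python 3.11.15 with matplotlib 3.10.9.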

Additional observations from a re-analysis of the deposited data

Results flagged for a closer look

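In groups of 5 tumors, 3 of 82 sets of values had 1 tumor far from the other 4 (a gap above 0.71 of the group's range), where chance gives about 1 in 20. *Tlr6* minus *Tlr2* was -0.36 in WT tumor 4 and between -0.995 and -0.813 in the other WT tumors. *Cd36* was at 42.3 normalized counts in WT tumor 3 and between 59.1 and 62.7 in the others. *Fos* was at 583 normalized counts in Siah2-/- tumor 5 and between 300.4 and 359.9 in the other Siah2-/- tumors.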

How the results depend on the processing

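With positive control scaling, 0 of the 10 members and 11 of the 67 pathway genes were called, against 4 and 34, and *Tlr8* stood at 0.86 (limma adjusted p = 0.0808), *Tlr3* at -0.034 and *Myd88* at -0.015. In that setting 95 probes were called, 60 higher and 35 lower, and with quantile normalization 153 higher and 181 lower. Signs turned with median scaling for *Tlr3* (-0.14), *Tlr7* (-0.016), *Myd88* (-0.12), *Ticam1* (-0.093), *Chuk* (-0.011) and *Jun* (-0.022), and with quantile normalization for *Tlr3* (-0.21), *Tlr7* (-0.047), *Myd88* (-0.19), *Ticam1* (-0.034), *Chuk* (-0.12) and *Jun* (-0.18). The cause was not tested. Relative to leukocyte genes, signs turned for *Tlr9* with their mean (-0.034), for *Tlr5* with a pseudocount of 10 (-0.037) and for *Tlr6* with the replicate block (0.038).

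In 8 tumors the replicate number is shared between groups, and same-numbered tumors deviated together with r of 0.067, 0.21, 0.17 and 0.49, so that 1 of the 4 was not above 0.1 and the numbers were not taken to pair the samples. As a hint from the data, not the design, 3 of 4 WT tumors correlated best with their own number. With the replicate block 3 members were called, as in the same 8 tumors without it, and 1 relative to leukocyte genes, with *Tlr8* at 0.45 (limma adjusted p = 0.0825), and 2 relative to macrophage genes, with *Cd14* at 0.45 (limma adjusted p = 0.0832). *Cd80* was at 0.43 (limma adjusted p = 0.0570). By pairing, 0 of 6 receptor pairs were called, as 4 pairs cannot go below an exact p of 0.125.

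Leaving out each tumor gave 3 to 5 members, 27 to 34 pathway genes, 1 to 2 members relative to leukocyte and 2 to 3 relative to macrophage genes, and 3 to 4 receptor pairs. Relative to leukocyte genes it turned signs for *Tlr5* (-0.021 to 0.35), *Tlr6* (-0.11 to 0.066) and *Tlr9* (-0.030 to 0.16), and relative to macrophage genes for *Tlr2* (-0.039 to 0.13), *Tlr3* (-0.27 to 0.0096) and *Tlr7* (-0.13 to 0.084). The methods' t-test called 379 probes at its unadjusted threshold and 314 after Benjamini-Hochberg adjustment, with 3 members among the latter. Depth limits *Tlr5* most, at 9.77 to 31.8 counts before scaling.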
